A study of Mus musculus with 2 samples.

Results

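The cells described here are *Hp* *Vcan* expressing cells of regenerating mouse muscle, a rare group labelled inflammatory monocytes. They were chosen by their own transcripts: at most 20% of a barcode's UMIs (unique molecular identifiers, which count captured transcripts) from mitochondrial genes, a sum of 2 or more UMIs of *Hp* and *Vcan*, at most 1 UMI of *Cd209a*, at most 2 of *Ccr7* and *Fscn1* together, and at most 4 of *Col1a1*, *Col3a1* and *Col1a2* together. This gate kept 61 of 3539 barcodes that passed the mitochondrial limit, out of 6724 in all. Of the 61 cells, 23 came from the Gata3KO library and 38 from the Wt library. The Gata3KO mice were of the strain C57BL/6:Cx3cr1CRExGata3fl/fl, in which Cre recombinase made under *Cx3cr1* control removes floxed *Gata3* from cells that use *Cx3cr1*. The Wt mice were C57BL/6 and, per the labels, carried neither the Cre nor the floxed allele, so effects of the Cre insertion and of the *Gata3* deletion cannot be told apart. Both strains received cardiotoxin, a snake venom toxin that destroys muscle fibres, in the tibialis anterior, and live (Zombie aqua-) CD45+ CD11b+ Ly6G- cells were sorted on day 4. Each genotype is 1 library, and the labels give no number, age or sex of the mice. There is therefore no replicate and no test. All intervals are at the 95% level and cover counting error only.

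Classical monocytes leave the blood through the chemokine receptor Ccr2, enter damaged muscle within days of injury and mature there into macrophages that first clear debris and later help rebuild the fibres. Freshly recruited monocytes carry the surface protein Ly6C and make inflammatory cytokines. *Hp* encodes haptoglobin, which binds free haemoglobin, and *Vcan* encodes versican, a matrix proteoglycan that human and mouse monocytes make. *Ly6c2* encodes the Ly6C antigen, *Plac8* a small cysteine-rich protein of myeloid cells and *Clec4e* the C-type lectin Mincle, which senses dead cells and mycobacterial glycolipid.

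The largest difference between the genotypes within the gate was in genes induced by interferon, so the promoters of 4 of them are shown, with that of *Clec4e* for contrast. Each sequence is the 250 bases before the RefSeq transcription start on GRCm38.p6, the mouse build that the deposited counts also use. In the first 4 sequences capitals mark the core of the interferon-stimulated response element, searched as GAAA, any 2 bases and GAAA again on either strand. In the last they mark letters of the C/EBP site, searched as TTGC, any 2 bases and AA on either strand. The overlapping matches of *Isg15* form 1 run of capitals.

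Ifi205 promoter (chr1:174031756-174032005, minus strand): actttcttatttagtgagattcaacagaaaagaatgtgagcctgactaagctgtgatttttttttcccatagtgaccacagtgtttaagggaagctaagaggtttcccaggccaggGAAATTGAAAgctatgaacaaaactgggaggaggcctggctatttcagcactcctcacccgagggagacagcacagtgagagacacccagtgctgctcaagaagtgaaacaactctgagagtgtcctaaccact
Cxcl10 promoter (chr5:92348890-92349139, minus strand): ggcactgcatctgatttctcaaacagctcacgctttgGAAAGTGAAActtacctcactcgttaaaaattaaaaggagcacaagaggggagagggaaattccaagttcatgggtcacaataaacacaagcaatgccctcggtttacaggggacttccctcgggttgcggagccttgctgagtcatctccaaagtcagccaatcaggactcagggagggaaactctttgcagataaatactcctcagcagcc
Isg15 promoter (chr4:156200819-156201068, minus strand): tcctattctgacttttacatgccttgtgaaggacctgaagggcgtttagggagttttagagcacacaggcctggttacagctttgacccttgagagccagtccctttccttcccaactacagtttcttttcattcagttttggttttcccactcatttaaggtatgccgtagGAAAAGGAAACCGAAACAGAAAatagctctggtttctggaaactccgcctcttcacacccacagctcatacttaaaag
Ifit1 promoter (chr19:34640639-34640888, plus strand): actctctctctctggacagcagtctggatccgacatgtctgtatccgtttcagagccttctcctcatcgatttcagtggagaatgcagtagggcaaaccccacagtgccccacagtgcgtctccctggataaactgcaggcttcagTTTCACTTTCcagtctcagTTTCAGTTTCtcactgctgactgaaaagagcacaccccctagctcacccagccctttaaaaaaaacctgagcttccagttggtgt
Clec4e promoter (chr6:123289872-123290121, minus strand): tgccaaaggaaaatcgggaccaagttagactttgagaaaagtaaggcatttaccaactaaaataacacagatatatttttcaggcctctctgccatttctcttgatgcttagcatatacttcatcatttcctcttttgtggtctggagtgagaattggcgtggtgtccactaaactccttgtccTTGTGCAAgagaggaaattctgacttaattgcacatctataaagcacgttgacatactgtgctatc

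The interferon element was found at position -134 of the *Ifi205* promoter, counted back from the start, at -213 of *Cxcl10*, at -78, -72 and -66 of *Isg15*, and at -104 and -85 of *Ifit1*. Among 32851 RefSeq promoters of the same length, 978 (2.98%) held it. Of the 44 interferon genes measured in the gate, 35 matched a promoter entry and 19 of those (54.3%) held it, while the 250 bases before *Ifit2* did not. The C/EBP letters stood at -66 of *Clec4e* and in 3142 (9.56%) of all promoters, and the windows of *Vcan* and *Ly6c2* held neither motif. The first *Plac8* window listed held neither, and another held the C/EBP letters at -12. Shares over the interferon genes use the first window listed for each gene. These matches describe letters in a window and say nothing of binding.

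The 23 Gata3KO cells were deeper than the 38 Wt cells and held fewer UMIs of the genes that defined them. Gata3KO gate cells had a median of 10787 UMIs each (1395 to 43674) and Wt gate cells a median of 8848 (907 to 25743), above the medians of the remaining barcodes within the mitochondrial limit, which were 4604.5 in Gata3KO and 3342.5 in Wt. *Hp* summed to 69 UMIs in Gata3KO gate cells, with at most 13 in a cell, and to 259 in Wt gate cells, with at most 52. *Vcan* summed to 39 UMIs in Gata3KO, 17 of them in a single cell, and to 81 in Wt, with at most 10 in a cell. *Hp* alone brought 12 Gata3KO and 18 Wt cells into the gate, *Vcan* alone 5 and 7, and both transcripts were present in 6 and 13. These values chose the cells and are given as a description.

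The gate held 41.8% of the *Hp* UMIs and 35.1% of the *Vcan* UMIs of the Gata3KO barcodes within the mitochondrial limit, against 87.8% of *Hp* and 59.6% of *Vcan* UMIs in Wt. The rest lay in barcodes with a single UMI or in cells removed by the other limits. *Hp* and *Vcan* together made up a median of 2.83 UMIs per 10000 in Gata3KO gate cells and 9.53 in Wt gate cells, and stood under 2 per 10000 in 8 Gata3KO and 3 Wt cells. At the lower edge of the gate, 12 Gata3KO and 10 Wt cells had exactly 2 UMIs. Just outside it, 64 Gata3KO and 57 Wt barcodes had 1 UMI. *Ly6c2* stood at 212 CPM (a gene's share of all UMIs of those cells, put on one scale) in the Gata3KO cells with 2 UMIs and at 440 CPM in those with 1, against 1834 CPM and 509 CPM in Wt. *Gpnmb*, a macrophage gene, stood at 4499 CPM in the Gata3KO cells with 2 UMIs and at 265 CPM in the Wt cells with 2. The Wt *Ly6c2* value at 2 UMIs rested mostly on 1 cell, which held 67.5% of the 83 UMIs, with a median of 1 per cell. Median depth of the cells with 2 UMIs was 17271.5 UMIs in Gata3KO and 2745.5 in Wt. The edge of the gate therefore differed between the 2 libraries in depth and in *Gpnmb*.

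**Figure D1:**
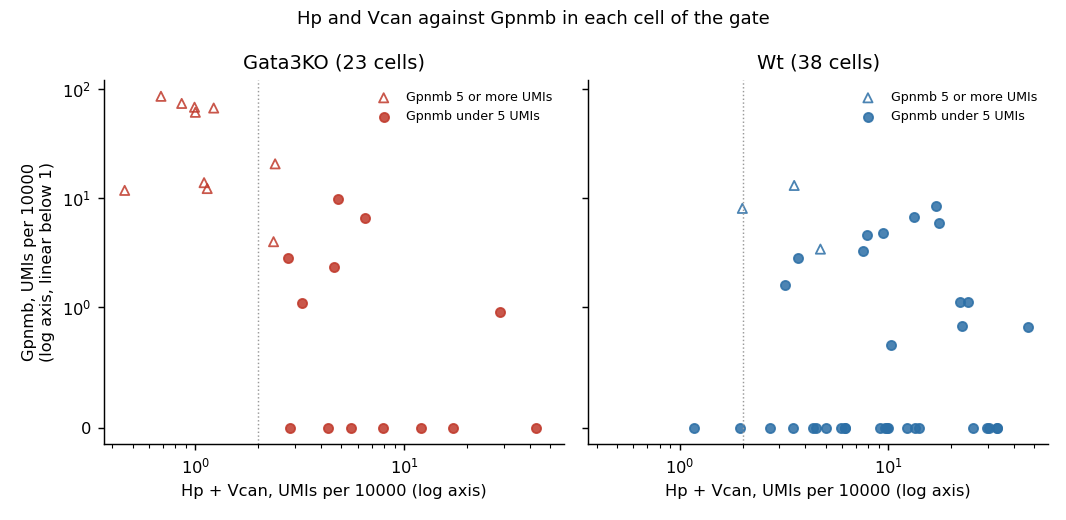
Each point is a cell of the gate, Gata3KO on the left and Wt on the right, with *Hp* and *Vcan* UMIs per 10000 on the horizontal log axis and *Gpnmb* UMIs per 10000 on the vertical axis (log, linear below 1); open triangles mark cells with 5 or more *Gpnmb* UMIs and the dotted line marks 2 per 10000. 10 of 23 Gata3KO cells are triangles, most of them at the low *Hp* and *Vcan* end, against 3 of 38 Wt cells.

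A check against the other markers divided the Gata3KO cells. *Gpnmb*, which encodes a glycoprotein of phagocytic macrophages, had 5 or more UMIs in 10 of 23 Gata3KO gate cells and 3 of 38 Wt gate cells. The 10 Gata3KO cells were deep, with a median of 20118.5 UMIs, and supplied 70.1% of all Gata3KO gate UMIs; the 3 Wt cells supplied 10.7%. None of the 10 had more than 3 UMIs of *Hp* and *Vcan* together, and 8 had exactly 2. In these 10 cells *Ly6c2* stood at 160 CPM (112 to 223) and *Plac8* at 91.6 CPM (56.0 to 141), with 19 of the 20 *Plac8* UMIs in a single cell.

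The 10 cells were compared with the Gata3KO barcodes that had 5 or more *Gpnmb* UMIs and at most 1 UMI of *Hp* and *Vcan*, called *Gpnmb* macrophages here, of which there were 585. Mature macrophage genes took a median of 6.39% of UMIs in the 10 gate cells and 5.59% in the 585. That list includes *Gpnmb*, which chose both sets and stood at 4209 and 3026 CPM in them, so this part of the likeness was fixed. Interferon-induced genes took 0.183% and 0.192%, and *Ly6c2* stood at 160 and 238 CPM. The label of inflammatory monocyte thus goes against the markers of 9 of these 10 cells. The other one had exactly 5 *Gpnmb* UMIs, held the 19 *Plac8* UMIs and 34 UMIs of *Chil3*, and had 0 of *C1qa*. It gave 0.797% of its UMIs to mature macrophage genes. With only 3 UMIs of *Ly6c2* and 1 of *Clec4e* among its 12675, its markers were mixed. Among the cells below 5 *Gpnmb* UMIs, in turn, 1 Gata3KO cell with 4 gave 6.97% to mature macrophage genes. Wt cells were mixed as well: 6 of 35 below the limit gave 2% or more to these genes, up to 4.90%, against 2 of 13 in Gata3KO. A Wt cell above the limit held 27 *Ly6c2* and 40 *Plac8* UMIs. The main comparisons below are given for the whole gate and again for the cells with fewer than 5 *Gpnmb* UMIs, which are 13 of Gata3KO (93140 UMIs) and 35 of Wt (278817 UMIs). That limit was chosen with earlier results of these data known.

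*Ly6c2* had from 0 to 59 UMIs in a Gata3KO gate cell, with a median of 4, and from 0 to 114 in a Wt gate cell, with a median of 17. Its summed level was 658 CPM (571 to 755) in Gata3KO and 3034 CPM in Wt, a log2 ratio of -2.20 (-2.43 to -1.99). In cells with fewer than 5 *Gpnmb* UMIs the levels were 1825 and 3239 CPM and the log2 ratio -0.83 (-1.07 to -0.59). Values per cell overlapped between the libraries. When every barcode was thinned to 2000 UMIs before the gate was applied, 5 Gata3KO and 18 Wt cells remained and the ratio with 1 CPM added was 0.09, so the direction of the *Ly6c2* difference depends on which cells enter.

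*Plac8* had from 0 to 74 UMIs in a Gata3KO gate cell, with a median of 1, and from 0 to 149 in a Wt gate cell, with a median of 29.5. It stood at 921 CPM in Gata3KO and 5488 CPM in Wt (log2 ratio -2.57, -2.76 to -2.39), and at 2867 and 6000 CPM without the *Gpnmb* cells (-1.07, -1.26 to -0.88). *Plac8* was also lower in the other Gata3KO barcodes, at 94.5 CPM against 488 CPM in the other Wt barcodes, whereas *Ly6c2* there stood at 194 and 144 CPM.

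*Clec4e* was seen in 8 of 23 Gata3KO and 20 of 38 Wt gate cells, with at most 11 and 33 UMIs in a cell. It stood at 116 CPM in Gata3KO and 628 CPM in Wt (log2 ratio -2.44, -2.997 to -1.92), and at 290 and 699 CPM without the *Gpnmb* cells (-1.27, -1.91 to -0.69).

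The share of cells with a UMI of a gene depends on depth, so shares were also taken at a fixed depth of 2000 UMIs per cell. This left out 1 Gata3KO and 8 Wt gate cells. It evens out depth but does not remove free RNA, which gives UMIs in cells that do not make a transcript. *Ly6c2* was then seen in 10 of 22 Gata3KO gate cells (45.5%, 24.4 to 67.8) and 26 of 30 Wt gate cells (86.7%, 69.3 to 96.2), against 82.6% and 81.6% before thinning. Among cells with fewer than 5 *Gpnmb* UMIs it was 7 of 12 in Gata3KO (58.3%, 27.7 to 84.8) and 24 of 27 in Wt (88.9%, 70.8 to 97.6). Mature dendritic cells, chosen by *Ccr7* and *Fscn1*, showed *Ly6c2* at that depth in 1 of 16 Gata3KO barcodes (6.25%) and 2 of 70 Wt barcodes (2.86%), with medians before thinning of 12515 and 9337.5 UMIs. *Gpnmb* macrophages showed it in 21.1% of Gata3KO and 17.6% of Wt barcodes, with medians of 12295 and 9744 UMIs, so their share stood above that of the dendritic cells and whether it is free RNA was not tested. *Plac8* was seen in 11 of 12 Gata3KO gate cells with fewer than 5 *Gpnmb* UMIs (91.7%) and 26 of 27 such Wt cells (96.3%), against 2.28% and 14.6% of *Gpnmb* macrophages and 18.8% and 31.4% of mature dendritic cells. Type 2 dendritic cells, chosen by 2 or more *Cd209a* UMIs, showed *Plac8* in 40.8% of Gata3KO and 87.3% of Wt barcodes. *Plac8* thus marked nearly all cells of the gate subset in both libraries, but in Wt it also marked most type 2 dendritic cells.

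**Figure D2:**
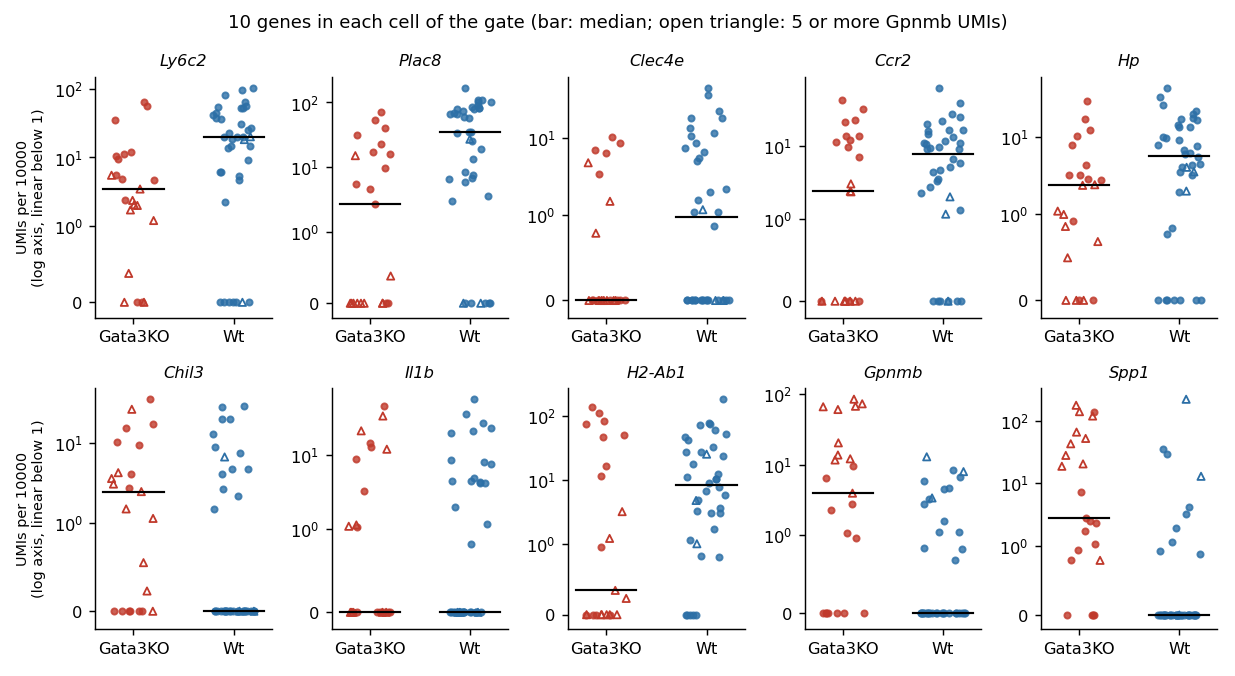
Each panel plots a gene's UMIs per 10000 in every cell of the gate (vertical axis log, linear below 1), Gata3KO in red on the left and Wt in blue on the right, with a bar at the median and open triangles for cells with 5 or more *Gpnmb* UMIs. *Ly6c2* and *Plac8* have lower medians in Gata3KO, where the triangles sit low, and *Gpnmb* and *Spp1* are highest in the triangles.

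The remaining monocyte genes did not move together. *Ccr2*, the receptor for the chemokine Ccl2, was seen in 13 of 23 Gata3KO and 31 of 38 Wt gate cells and stood at 485 and 833 CPM (log2 ratio -0.78, -1.08 to -0.49). Without the *Gpnmb* cells it was higher in Gata3KO, at 1482 CPM against 918 CPM in Wt (0.69, 0.38 to 0.99). *Chil3*, which encodes the chitinase-like protein Ym1, stood at 510 and 445 CPM in the gate (0.20, -0.14 to 0.54) and at 999 and 463 CPM without the *Gpnmb* cells (1.11, 0.71 to 1.51). In that subset *Chil3* was seen in 7 of 13 Gata3KO and 13 of 35 Wt cells. The top cell held 48.4% of its Gata3KO UMIs and 25.6% of its Wt UMIs. *Ms4a4c*, a membrane protein gene of the Ms4a family, stood at 340 and 1945 CPM (-2.51, -2.83 to -2.21), and at 1031 and 2073 CPM without the *Gpnmb* cells (-1.01, -1.34 to -0.69). It belongs to the interferon list below as well. The *Ly6i* gene of the Ly6 cluster had 2 UMIs in Gata3KO and 51 in Wt in the whole gate (-4.67, -7.75 to -2.74). *Lyz2*, the lysozyme gene common to myeloid cells, was at 21015 and 21063 CPM (-0.00, -0.05 to 0.05). Of 22 classical monocyte genes measured, 11 were 2-fold or more lower in Gata3KO and 0 higher, with a median log2 ratio of -0.93. Over all 4083 genes measured in the gate, 10.3% were 2-fold or more lower in Gata3KO, 8.35% were 2-fold or more higher, and the median was 0.00. Without the *Gpnmb* cells, the monocyte list had a median of -0.20 with 7 of 22 lower and 2 higher, where 14.6% of 2694 genes were lower and 4.83% higher and their median was -0.10. Leaving out *Ms4a4c* and *Ly6a*, the members shared with the interferon list, gave medians of -0.68 in the gate and -0.11 without the *Gpnmb* cells.

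*Gata3* had 0 UMIs in the gate in both libraries, with an exact upper limit of 11.84 CPM in Gata3KO and 11.82 CPM in Wt. The deletion could not be read from these cells, and other barcodes held only 5 *Gata3* UMIs in Gata3KO and 7 in Wt. *Cx3cr1*, the gene that drives the Cre and a receptor of non-classical monocytes and macrophages, stood at 311 CPM in Gata3KO and 147 CPM in Wt (log2 ratio 1.08, 0.56 to 1.62). *Cx3cr1* was seen in 17 gate cells of each library.

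The gate made up 23 of 1499 Gata3KO barcodes (1.53%, 0.975 to 2.29) and 38 of 2040 Wt barcodes (1.86%, 1.32 to 2.55) within the mitochondrial limit. The difference was -0.33 percentage points (-1.21 to 0.60), so none was detectable at these counts. It depended on the cells taken: thinned to 2000 UMIs before gating it was -0.867 percentage points (-1.64 to -0.132), and without the *Gpnmb* cells -0.848 (-1.62 to -0.0474), both with intervals below 0. Only 43.7% of Gata3KO barcodes passed that limit, against 62.0% of Wt barcodes. The share also differed between depths. Below 2500 UMIs the gate held 1 of 383 Gata3KO barcodes (0.261%) and 9 of 782 Wt barcodes (1.15%), and between 2500 and 5000 UMIs 5 of 403 Gata3KO (1.24%) and 2 of 504 Wt barcodes (0.397%). Between 5000 and 10000 UMIs it held 3 of 245 Gata3KO barcodes (1.22%, 0.253 to 3.54) and 13 of 400 Wt barcodes (3.25%, 1.74 to 5.49). Between 10000 and 20000 UMIs it held 8 of 264 Gata3KO (3.03%, 1.32 to 5.88) and 13 of 262 Wt barcodes (4.96%, 2.67 to 8.34), and from 20000 UMIs up 6 of 204 Gata3KO (2.94%, 1.09 to 6.29) and 1 of 92 Wt barcodes (1.09%, 0.0275 to 5.91). Neither library was higher at every depth. Cells with fewer than 5 *Gpnmb* UMIs alone were 0.867% of Gata3KO and 1.72% of Wt barcodes.

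Set against the other barcodes of its own library and taken by gene list, the gate stood highest in classical monocyte genes in Gata3KO. In Wt it stood highest in interleukin 1 and related cytokine genes, followed by classical monocyte genes. These ratios use the cells that the rule chose and are a description. They include the *Gpnmb* cells, which supplied 70.1% of Gata3KO and 10.7% of Wt gate UMIs. Of 5689 genes compared, 87 (1.53%) were 2-fold or more higher in the gate in Gata3KO and 343 (6.03%) in Wt, and 47 (0.826%) in both. 354 genes (6.22%) were 2-fold or more lower in the gate in Gata3KO, 714 (12.6%) in Wt and 146 (2.57%) in both. *Plac8* was higher in the gate by a log2 ratio of 3.27 in Gata3KO and 3.49 in Wt. *Ly6c2* was higher by 1.75 and 4.39, and *Clec4e* by 1.85 and 4.90. *Il1b*, which encodes the cytokine interleukin 1 beta, was higher by 1.47 and 2.74, *Cebpb*, a transcription factor of inflammatory monocytes, by 1.24 and 2.78, and *Id3*, an inhibitor of helix-loop-helix factors, by 2.21 and 2.32.

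Taken by list, classical monocyte genes stood above the other barcodes by a median log2 ratio of 0.96 in Gata3KO and 1.76 in Wt, with 9 and 15 of 20 genes at 2-fold or more. Interleukin 1 and related cytokine genes had medians of 0.43 and 1.97. Early response and heat shock genes had medians of 0.30 and 1.41, with 2 and 20 of 26 genes at 2-fold or more. Cell cycle genes were lower in the gate, with medians of -1.74 and -3.09, and mature macrophage genes had medians of -0.03 in Gata3KO and -1.23 in Wt. The median of all genes compared was -0.02 in Gata3KO and -0.07 in Wt, and 1.53% and 6.03% of them were 2-fold or more higher in the gate. Interferon-induced genes differed between the libraries when all gate cells were used. Of 39, 0 were 2-fold or more higher in the Gata3KO gate, near the 1.53% over all genes, with a median of -0.27. In the Wt gate 20 were, where 6.03% of all genes were, with a median of 1.03. With the *Gpnmb* cells left out, their summed level was above that of the other barcodes in both libraries. It was 6904 CPM in the gate and 3410 CPM in the other barcodes of Gata3KO, and 21075 and 11505 CPM in Wt.

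Interferon-induced genes were the group with the largest difference between the genotypes. They are switched on by interferon receptors through Stat and Irf factors and block viral replication. In the gate, 43 of 44 measured were 2-fold or more lower in Gata3KO, where 10.3% of all genes measured were, and the median log2 ratio was -2.78. Without the *Gpnmb* cells, 35 of 43 were 2-fold or more lower, where 14.6% of all genes were, and the median was -1.55. The other barcodes showed the same direction, with 43 of 47 genes 2-fold or more lower and a median of -1.78, where 4.19% of 6131 genes measured were lower by 2-fold and 1.32% higher. In the alternatives run the gate median stayed negative, between -3.16 and -1.22.

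**Figure D3:**
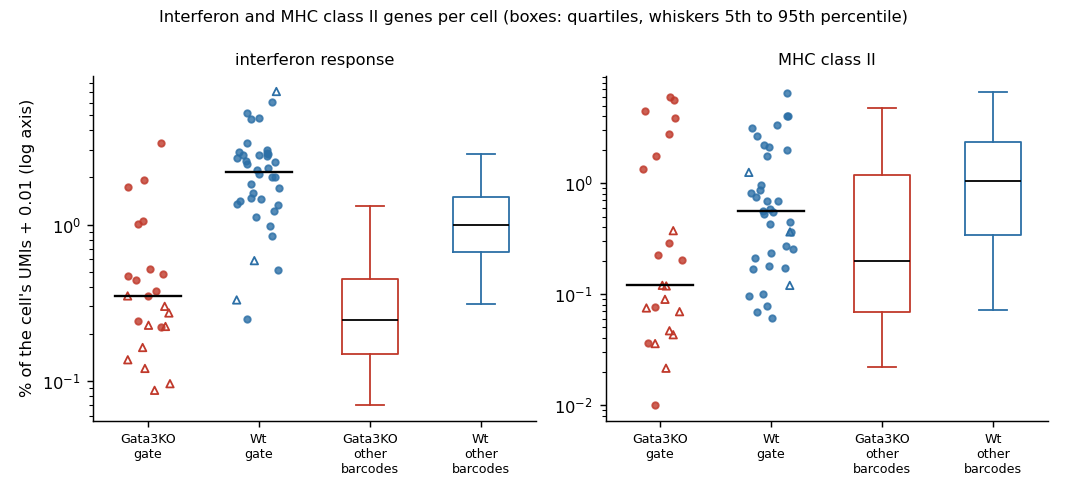
Percent of each cell's UMIs from the interferon list (left) and the MHC class II list (right), with 0.01 added on a log axis, for gate cells (points, bar at the median, open triangles for 5 or more *Gpnmb* UMIs) and other barcodes (box at the quartiles, whiskers at the 5th and 95th percentiles), Gata3KO left of Wt in each pair. The interferon share has a median of 0.338% in Gata3KO gate cells and 2.17% in Wt gate cells.

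Cell by cell, the interferon list took from 0.0770% to 3.30% of UMIs in Gata3KO gate cells, with a median of 0.338%, and from 0.239% to 7.08% in Wt gate cells, with a median of 2.17%. It reached 1% in 4 of 23 Gata3KO cells and 32 of 38 Wt cells. Among cells with fewer than 5 *Gpnmb* UMIs the medians were 0.472% in 13 Gata3KO cells and 2.24% in 35 Wt cells. The difference was therefore spread over most cells and did not rest on a few. In other barcodes the medians were 0.235% in Gata3KO and 0.977% in Wt.

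*Ifi205*, a DNA sensor gene of the Ifi200 family, had 2 UMIs in 2 Gata3KO gate cells and 113 UMIs in 27 Wt gate cells, a log2 ratio of -5.82 (-8.88 to -3.93). *Isg15*, which encodes a ubiquitin-like modifier, stood at 73.8 CPM in 12 Gata3KO cells and 2111 CPM in 34 Wt cells (-4.84, -5.51 to -4.24). Without the *Gpnmb* cells *Isg15* stood at 172 and 2044 CPM (-3.57, -4.39 to -2.86). *Ifit1* and *Ifit2* encode proteins that bind foreign RNA. *Ifit1* had 4 UMIs in Gata3KO and 116 in Wt (-4.85, -6.75 to -3.46), and *Ifit2* had 6 and 149 (-4.63, -6.10 to -3.48). *Zbp1*, a sensor of Z-form nucleic acid, had 14 and 184 UMIs (-3.71, -4.61 to -2.93). *Rsad2*, the gene of the antiviral enzyme viperin, had 15 and 194 UMIs (-3.69, -4.55 to -2.93). *Irf7*, the regulator that amplifies type I interferon, was seen in 20 of 23 Gata3KO and 35 of 38 Wt cells and stood at 247 and 1576 CPM (-2.67, -3.04 to -2.32). *Usp18*, which removes Isg15 from proteins, had 3 and 49 (-4.03, -6.35 to -2.39). Other than for *Isg15*, these ratios are for the whole gate only, where the *Gpnmb* cells supplied 70.1% of Gata3KO UMIs. The interferon list median was -2.78 with those cells and -1.55 without them.

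*Cxcl10*, an interferon-induced chemokine that draws T cells, had 14 UMIs in 2 Gata3KO gate cells and 483 UMIs in 23 Wt gate cells (log2 ratio -5.11, -5.99 to -4.34). A single Wt cell held 53.4% of the Wt UMIs. Without the *Gpnmb* cells it had 0 UMIs in Gata3KO and 224 in 21 Wt cells. To form a fold, the Gata3KO count of 0 in 93140 UMIs was given a floor of 3 counts, or 32.2 CPM. The Wt level of 803 CPM stood 24.9-fold above that floor. This fold is not an interval limit, because it leaves out the counting error of the Wt level. The exact upper limit for a count of 0 in these Gata3KO cells was also higher than the floor, at 39.6 CPM.

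**Figure D4:**
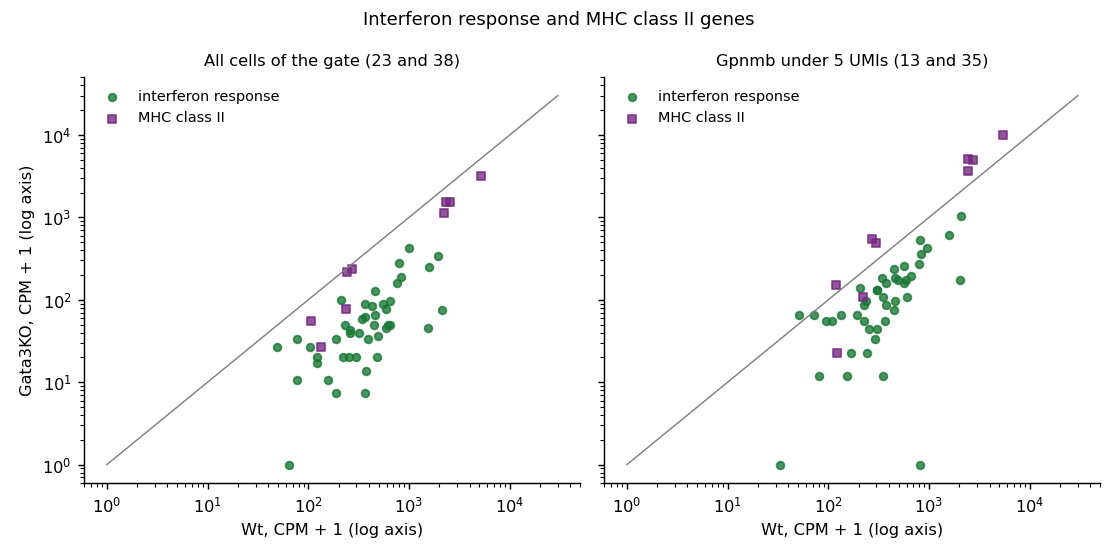
Summed CPM plus 1 of interferon response genes (circles) and MHC class II genes (squares) in Gata3KO (vertical, log) against Wt (horizontal, log), for all gate cells on the left and for cells with fewer than 5 *Gpnmb* UMIs on the right; the line marks equality. All 44 circles lie below the line on the left and nearly all on the right, while 9 of 9 squares lie below it on the left and 7 of 9 above it on the right.

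Antigen presentation genes divided by class. MHC class I and peptide loading genes had a median log2 ratio of -1.35, with 17 of 17 negative. Of these, 10 were 2-fold or more lower, where 10.3% of all genes measured were. Without the *Gpnmb* cells the median was -0.61, with 15 of 15 negative and 5 at 2-fold or more. There 14.6% of all genes were 2-fold or more lower and the median of all genes was -0.10. MHC class II genes changed direction with the cells included. *H2-Ab1*, a class II beta chain, stood at 1518 CPM in Gata3KO and 2547 CPM in Wt gate cells (log2 ratio -0.75, -0.91 to -0.58), but at 5003 and 2701 CPM without the *Gpnmb* cells (0.89, 0.72 to 1.06). *Cd74*, the invariant chain that escorts class II, followed with -0.71 (-0.82 to -0.59) and 0.86 (0.74 to 0.98). The list median was -0.75 in the gate, 0.75 without the *Gpnmb* cells and -1.28 in the other barcodes. The costimulatory genes of that list stayed lower without the *Gpnmb* cells: *Cd40* had a log2 ratio of -2.51 (-5.61 to -0.54) and *Cd86* of -1.05 (-2.18 to -0.08).

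Per cell, class II genes took a median of 0.110% of UMIs in Gata3KO gate cells and 0.548% in Wt gate cells. In cells with fewer than 5 *Gpnmb* UMIs the median was 1.34% in Gata3KO and 0.551% in Wt, and the share passed 1% in 7 of 13 Gata3KO and 10 of 35 Wt cells. Both sets ran from under 0.1% to about 6%, from 0 to 5.92% in Gata3KO and from 0.0509% to 6.48% in Wt. Of 11 type 2 dendritic cell genes, 6 in Gata3KO and 5 in Wt had a UMI in the gate, with a summed level of 228 and 227 CPM. The leading genes were *Itgax* with 39 UMIs in Gata3KO and *Tnip3* with 42 in Wt. *Flt3* was at 0 in both libraries, as was *Cd209a*, whose level the rule limits.

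Cytokine and chemokine genes mostly stood lower in the Gata3KO gate. *Il1b* stood at 709.5 CPM in 11 Gata3KO cells and 775 CPM in 18 Wt cells (log2 ratio -0.13, -0.40 to 0.14), so no difference was detectable in the gate as defined. Without the *Gpnmb* cells *Il1b* stood at 837 and 868 CPM. The ratio turned positive with a stricter gate, at 0.61 with at least 3 *Hp* and *Vcan* UMIs and 1.04 with at least 5. With at least 5, a single cell held 63.2% of the *Il1b* UMIs of 6 Gata3KO cells. In Wt a single cell held 55.1% of those of 18 cells. *Il1rn*, which encodes the antagonist of the interleukin 1 receptor, was lower, at 83.5 and 253 CPM (-1.60, -2.30 to -0.94). The interleukin 1 and cytokine list had a median of -0.97 in the gate and -0.49 without the *Gpnmb* cells. Chemokine genes had a median of -1.37, with 8 of 13 2-fold or more lower, where 10.3% of all genes measured were. Their median was -1.22 without the *Gpnmb* cells, with 6 of 11 lower, where 14.6% of all genes were. With barcodes thinned before gating the median was 0.71. *Pf4*, the platelet factor 4 chemokine also made by macrophages, ran the other way, with 345 UMIs in 10 Gata3KO cells and 12 UMIs in 4 Wt cells (4.85, 4.03 to 5.82). It kept a ratio of 3.90 (2.08 to 6.33) without the *Gpnmb* cells, where 2 cells of each library held it.

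*F10*, the coagulation factor X gene, stood at 86.7 CPM in Gata3KO and 429 CPM in Wt (log2 ratio -2.31, -2.96 to -1.70), and at -3.30 (-5.20 to -1.91) without the *Gpnmb* cells. *Slpi*, a secreted inhibitor of neutrophil elastase, had 6 UMIs in 4 Gata3KO cells and 59 in 14 Wt cells (-3.29, -4.80 to -2.09). Of the remaining genes named, *Arl5c*, a small GTPase gene, stood at 218 and 400 CPM (-0.88, -1.32 to -0.44).

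Macrophage genes were higher in the Gata3KO gate as a whole, and the *Gpnmb* cells carried most of that. Of 21 mature macrophage genes, 18 were 2-fold or more higher and 0 lower, with a median log2 ratio of 1.82. Of all genes measured in the gate, 8.35% were higher and 10.3% lower. But without the *Gpnmb* cells 3 of 18 were higher, 1 was lower and the median was 0.14, where 4.83% of all genes were higher and 14.6% lower. Leaving *Gpnmb* out of the list gave medians of 1.78 and 0.13. *Gpnmb* itself stood at 2986 and 141 CPM (4.40, 3.97 to 4.88) and, without those cells, at 118 and 71.7 CPM (0.72, -0.49 to 1.85), a fall that the limit on *Gpnmb* fixes. *Ctsl*, a lysosomal protease, had a log2 ratio of 2.88 (2.46 to 3.32) and 1.26 (0.49 to 2.02) without them. *Timp2*, an inhibitor of matrix metalloproteinases, had 2.998 (2.49 to 3.55) and 0.17 (-1.12 to 1.32). *Fabp5*, a fatty acid binding protein, changed direction, with 1.82 (1.68 to 1.96) in the gate and -4.21 (-5.66 to -3.07) without them. *Abca1*, which exports cholesterol, stayed higher at 2.96 (1.96 to 4.15) and 3.32 (1.36 to 5.82), as did *Spp1*, the osteopontin gene, at 2.47 (2.28 to 2.66) and 2.28 (1.70 to 2.87). In the subset without *Gpnmb* cells, however, 85.3% of the Gata3KO *Spp1* UMIs came from a single cell.

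**Figure D5:**
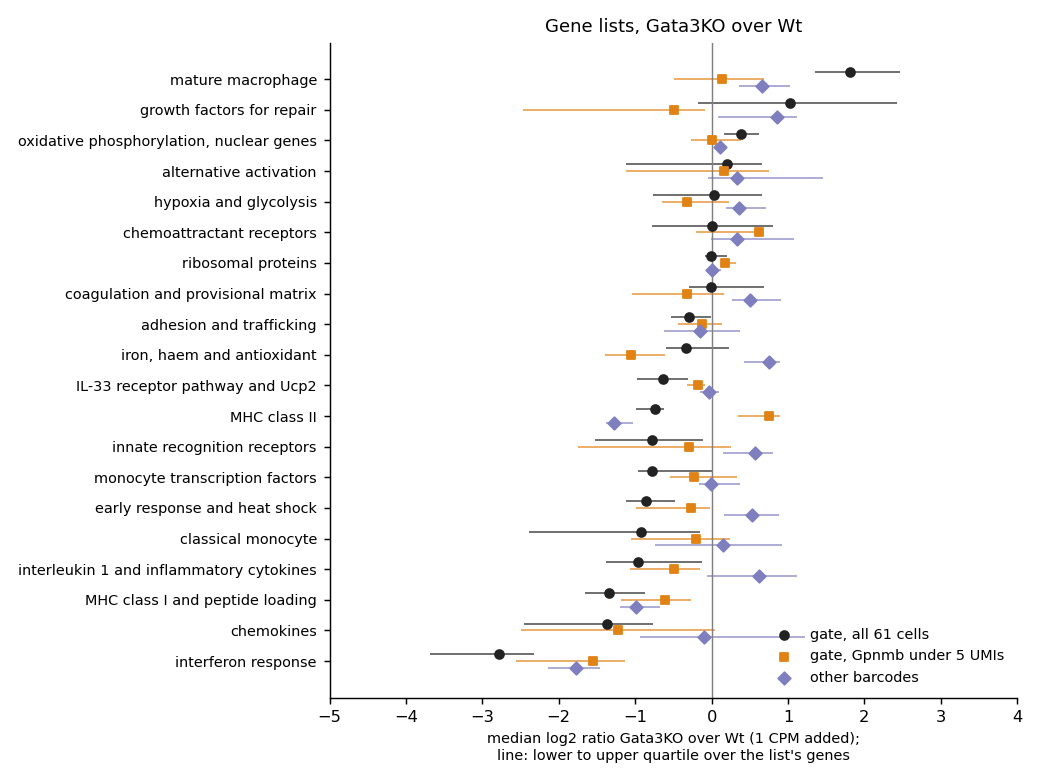
Median log2 ratio Gata3KO over Wt (1 CPM added) of each gene list with 6 or more genes measured in the gate, with a line from the lower to the upper quartile over its genes, for all gate cells (circles), cells with fewer than 5 *Gpnmb* UMIs (squares) and other barcodes (diamonds). Interferon response is lowest in all 3 sets, at -2.78 in the gate, and mature macrophage genes are at 1.82 in the gate and 0.14 without the *Gpnmb* cells.

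Early response and heat shock genes, which also respond to tissue dissociation, had a median log2 ratio of -0.86 in the gate, -0.27 without the *Gpnmb* cells and 0.53 in the other barcodes. Nuclear genes of oxidative phosphorylation had medians of 0.38, 0.01 and 0.11, and ribosomal protein genes of -0.00, 0.18 and 0.00. The part that these shifts played in the other ratios was not tested.

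Markers of other cell types were counted among the genes that each deposited table lists; a gene not listed was not read as 0. The T and NK cell genes listed (6 of 12 in Gata3KO, 9 of 12 in Wt), the mast cell, basophil and eosinophil genes (2 of 9 in each) and the red cell genes (3 of 4 in Gata3KO, 1 of 4 in Wt) had 0 UMIs in the gate. B cell genes summed to 77.1 CPM in Gata3KO and 176 CPM in Wt, led by *Ighm*, the heavy chain of IgM, with 24 and 54 UMIs, while *Igkc*, the kappa light chain, was at 0 in both. Mature dendritic cell genes summed to 266 and 596 CPM, led by *Cd83* with 56 UMIs in Gata3KO and *Traf1* with 74 in Wt, while *Ccl22* was at 0 in both. Of 17 neutrophil genes, 10 were listed in Gata3KO and 9 in Wt, and 5 and 7 had a UMI, with a summed level of 218 and 413 CPM. *Cxcr2* and *G0s2* were at 0 in both, and *S100a8* and *S100a9* had 3 and 0 UMIs in Gata3KO and 3 and 1 in Wt. Skeletal muscle genes summed to 119 and 80.1 CPM, fibroblast and endothelial genes to 32.1 and 67.3 CPM. Mitochondrial genes took a median of 5.39% of UMIs in Gata3KO gate cells and 4.17% in Wt gate cells, and the nuclear RNA *Malat1* 1.24% and 2.14%. Of the 6724 barcodes, 2 were shared between the libraries and none of these lay in the gate. Doublet scoring marked 2 of 1499 Gata3KO barcodes (0.133%) and 0 of 2040 Wt barcodes, a share so low that the caller cannot be taken to have worked. Whether the deep *Gpnmb* cells hold more than 1 cell was not tested.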

How the data were processed

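The authors deposited 1 table per library of raw UMI counts per gene and barcode, unnormalized. The submitters' processing notes name the build mm10, R 3.6.1, Seurat 3.0.2 and Cell Ranger 3.0.1, without settings. Per the labels' protocols, the input of each droplet library (10x Chromium 3' v3) was 8000 cells. The tables hold 3434 barcodes and 19422237 UMIs for Gata3KO and 3290 barcodes and 15392330 UMIs for Wt; genes listed have a UMI in at least 5 barcodes, and 13289 genes in both tables were compared.

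UMIs of the gate were summed per library and scaled to CPM. Ratios are log2 Gata3KO over Wt with exact conditional binomial intervals; sums have exact Poisson and shares exact Clopper-Pearson intervals (Python 3.11.15, numpy 2.4.6, pandas 2.3.3, scipy 1.17.1). Lists, and counts of genes at 2-fold or more, use genes that reach 20 CPM in either library and hold 20 UMIs in all, with 1 CPM added. For the fold of *Cxcl10*, a count of 0 was given a floor of 3 counts. Doublets were scored with Scrublet (scanpy 1.11.5) and left in. Promoters came from RefSeq. The calculation was tested on simulated counts.

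The gate, its members and the gene lists were chosen with earlier results of these data known. Named genes are the 5 gate markers; the 15 highest genes of the gate over other barcodes in both libraries, at 100 CPM; the 15 largest ratios each way at 100 CPM and 50 UMIs; and up to 3 highest, 3 lowest and 3 most abundant members of each list. *Xist*, Y-linked, haemoglobin, immunoglobulin and predicted genes were passed over, and 1 gene is not reported here. Alternatives covered the mitochondrial limit, the *Hp* and *Vcan* minimum, depth, doublets, neutrophil and *Gpnmb* cells, weighting, scaling, filters, the CPM added and, added after seeing the data, list members left out.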

Additional observations from a re-analysis of the deposited data

Results flagged for a closer look

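In 3 genes the log2 ratio Gata3KO over Wt was past 2-fold in opposite directions in the gate and in the other barcodes. These differences were not tested. *Cxcl1*, a chemokine that draws neutrophils, had -3.85 in the gate and 3.38 in the other barcodes; its gate UMIs came from 4 Gata3KO cells and 1 Wt cell, which held all 58 Wt UMIs. *Ccl7*, a chemokine that draws monocytes, had -1.58 and 1.78; it was seen in 1 Gata3KO and 6 Wt gate cells, and a single Wt cell held 84.1% of the Wt UMIs. *Clec4d*, a C-type lectin gene named here after its values were seen, had -1.32 and 1.39, with UMIs in 8 Gata3KO and 12 Wt gate cells. The top cell held 47.1% of its Gata3KO UMIs and 43.5% of its Wt UMIs.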

How the results depend on the processing

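No paired analysis was possible because each genotype is 1 library. No alternative reversed the share difference or moved it beyond its interval, but its own interval lay below 0 after thinning to 2000 UMIs (-0.867) and without *Gpnmb* cells (-0.848). The count of genes 2-fold or more higher in Gata3KO, 341, was 154 with at least 3 *Hp* and *Vcan* UMIs, 106 with at least 5, 122 with both genes present, 142 with at least 2 per 10000, 17 after thinning to 2000 UMIs, 143 in barcodes of 3000 to 15000 UMIs, 130 without *Gpnmb* cells and 157 when the rest were also weighted alike, an alternative chosen after seeing the data. It was 1133 with a filter of 5 CPM and 124 with 100 CPM. The lower count, 419, was 64 after thinning, 944 at 5 CPM and 232 at 100 CPM.

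The interferon median, -2.78, was -2.16 with at least 3 UMIs, -1.83 at 2 per 10000, -1.42 thinned, -1.96 in 3000 to 15000 UMIs, -1.55 without *Gpnmb* cells, -1.84 with every barcode weighted alike and -1.22 with both. The monocyte median, -0.93, was -0.31 with both genes present, -0.29 at 2 per 10000, -0.14 thinned, -0.30 in 3000 to 15000 UMIs, -0.20 without *Gpnmb* cells, -0.28 weighted alike and -0.22 with both.

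Differences of 2-fold or more changed direction as follows; causes were not tested beyond the cells left out. The *Cxcl1* values have 0 UMIs in Wt and are set by the CPM added. With at least 3 UMIs, *Fabp5* was -1.39 and the growth factor list -0.33. With at least 5 they were -6.69 and -1.19, the mature macrophage list -0.70, *Vcan* 0.64, *Cxcl1* 4.37, *Gpnmb* -2.16 and *Spp1* -0.70. With both genes present the growth factor list was -0.16 and *Vcan* 0.35. At 2 per 10000 that list was -0.17, *Cxcl1* 4.77 and *Fabp5* -4.06. Thinned, with 5 Gata3KO and 18 Wt cells, chemokines were 0.71, *Ly6c2* 0.087, *Hp* 0.089, *Vcan* 1.33, *Il1rn* 0.040, *Ccl7* 1.43, and *Fabp5* -10.84 and *Cx3cr1* -7.13, both with 0 UMIs in Gata3KO and so set by the CPM added. In 3000 to 15000 UMIs the macrophage list was -0.10, growth factors -0.39, *Vcan* 0.065, *Cxcl1* 4.79 and *Fabp5* -4.06. Without barcodes with neutrophil genes *Cxcl1* was 3.79. Without *Gpnmb* cells growth factors were -0.49, *Vcan* 0.21, *Ccl7* 2.62 and *Fabp5* -4.19; weighted alike too, -0.57 for growth factors, 2.41 for *Ccl7* and -4.09 for *Fabp5*. Weighting alone gave 0.45 for *Ccl7*.

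Smaller differences turned too. The MHC class II list and *H2-Ab1*, -0.75 in the gate, and *Cd74*, -0.71, were positive in every alternative that made the *Hp* and *Vcan* rule stricter, changed the depth, left out *Gpnmb* cells or weighted barcodes alike, at 0.029 to 1.51, 0.019 to 2.30 and 0.15 to 1.85. *Ccr2*, -0.78, was 0.23 to 0.72 in these, except weighting alone. *Il1b*, -0.13, was 0.61 with at least 3 UMIs, 1.04 with at least 5, 0.24 at 2 per 10000, 0.27 in 3000 to 15000 UMIs, 0.049 without barcodes with neutrophil genes and 0.10 weighted alike. With 23 and 38 cells, single cells can set the value of a gene, and no value here measures the spread between mice.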

Other observations

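Genes for iron, haem and antioxidant defence were lower in Gata3KO gate cells with fewer than 5 *Gpnmb* UMIs, with a median log2 ratio of -1.05, 14 of 14 negative and 7 at 2-fold or more, where 14.6% of all genes measured there were 2-fold or more lower. The median of all genes measured there was -0.10. *Hp*, which the gate uses, is among the 14. Without *Hp* the list median was -1.14, with 13 of 13 negative. In the whole gate the median was -0.33, and in the other barcodes it was 0.75. *Prdx1*, a peroxidase gene, stood at 311 CPM in 9 Gata3KO cells and 1539 CPM in 29 Wt cells of that subset (log2 ratio -2.31, -2.90 to -1.76). *Txnrd1*, which encodes thioredoxin reductase, stood at 32.2 CPM in 3 Gata3KO cells and 111 CPM in 11 Wt cells (-1.79, -4.14 to -0.11).

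Ribosomal protein genes were all slightly higher in the same Gata3KO subset, 28 of 28 with a median of 0.18, against 13 of 28 in the whole gate. In that subset 1 of the 28 was 2-fold or more higher, where 4.83% of all genes were. The median of all genes measured was -0.10 in the subset and 0.00 in the whole gate.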
